A study of Mus musculus with 2 samples.

Results

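Arterial endothelial cells of the normal mouse pancreas were described from 319 cells of 1 single-cell RNA sequencing library, of 4616 cells of that library that passed a filter and of 7189 in the study. The library was made from GFP-positive cells sorted from pancreata of Rosa-mTmG;Fabp4-Cre mice at 6 to 9 weeks of age, a sort that the labels name PSC (normal), for pancreatic stellate cells. In these mice a Cre recombinase under the Fabp4 promoter switches a membrane reporter to GFP, so any cell with present or past Fabp4 promoter activity, or descended from such a cell, can enter the sort. The study's other library held cells positive for both GFP and PDPN, labelled CAF (tumor), from mice of the same genotype 21 days after FC1245 pancreatic cancer cells had been placed in the pancreas at 8 weeks of age. Each group is 1 library. The number of mice is not given in the sources used here, and cells of 1 library are not replicates, so the values below carry no test and their 95% intervals cover counting error only.

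The cells were chosen by their own counts, per 10000 unique molecular identifiers (UMIs, each standing for 1 captured transcript molecule). A cell needed 500 or more genes and 1000 or more UMIs, with no more than 10% of them mitochondrial. It needed at least 20 UMIs per 10000 of Pecam1, Cdh5, Kdr, Flt1, Egfl7 and Emcn together, under 50 of Col1a1, Col1a2, Col3a1 and Dcn together, no Ptprc UMI, and under 3 of Mmrn1, Prox1 and Reln together. These gates left 1342 blood endothelial cells. The 319 arterial cells were those with at least 5 UMIs per 10000 of Sema3g, Gja4, Gja5 and Stmn2 together, and the other 1023 were the cells they were set against. Arterial cells were 23.8% of blood endothelial cells (exact 95% interval 21.5 to 26.1) and 6.91% of all cells past the filter (6.20 to 7.68). Their median depth was 3529 UMIs (1020 to 12274) and 1772 genes, against 4148 UMIs and 1926 genes in the others, and the sums held 1243939 UMIs in arterial cells and 4529071 in the others. Since only the 3′ ends of transcripts are counted, levels are compared between cells and not between genes.

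Arterial endothelium lines the vessels that carry blood to a tissue under high pressure and pulsatile flow. Notch signalling, with the ligands Dll4 and Jag1 and the target genes Hey1 and Hey2, and the transcription factor Sox17 set and hold the arterial state, and in veins the nuclear receptor Nr2f2 holds it off. Arterial endothelial cells are joined by connexin gap junctions, carry the ligand ephrin-B2, and lie on elastic layers built with fibulins and fibrillin, whereas the capillaries of the pancreas are fenestrated and rich in Plvap, the protein of fenestral diaphragms.

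Promoter sequences are shown for 4 genes that separated the cells, 1 of the choosing genes (Sema3g) and 3 that the choice did not use (Fbln5, Bmx and Edn1). Each is a 300-base window, from 250 bases before a listed RefSeq start to 50 after it, on GRCm38.p6, read 5′ to 3′ on the gene's strand: chr14:31217623-31217922 on the plus strand for Sema3g, chr12:101819070-101819369 on the minus strand for Fbln5, chrX:164258144-164258443 on the minus strand for Bmx and chr13:42301226-42301525 on the plus strand for Edn1. Capitals mark TGGGAA or its reverse complement TTCCCA, the core bound by the Notch effector RBPJ, in the first 3, and GATAA or its reverse complement TTATC, the core bound by GATA factors, in Edn1.
Sema3g: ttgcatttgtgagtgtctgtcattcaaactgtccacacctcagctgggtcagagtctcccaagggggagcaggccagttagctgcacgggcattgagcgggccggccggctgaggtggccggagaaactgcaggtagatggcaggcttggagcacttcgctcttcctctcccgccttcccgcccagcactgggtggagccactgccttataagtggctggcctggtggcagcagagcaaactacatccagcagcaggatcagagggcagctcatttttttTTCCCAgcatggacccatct
Fbln5: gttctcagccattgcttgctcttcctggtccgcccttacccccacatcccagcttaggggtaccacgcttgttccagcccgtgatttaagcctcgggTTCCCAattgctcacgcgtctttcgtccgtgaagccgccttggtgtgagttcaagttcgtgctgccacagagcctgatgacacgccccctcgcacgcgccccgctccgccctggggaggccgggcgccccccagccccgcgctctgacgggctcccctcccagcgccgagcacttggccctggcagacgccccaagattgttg
Bmx: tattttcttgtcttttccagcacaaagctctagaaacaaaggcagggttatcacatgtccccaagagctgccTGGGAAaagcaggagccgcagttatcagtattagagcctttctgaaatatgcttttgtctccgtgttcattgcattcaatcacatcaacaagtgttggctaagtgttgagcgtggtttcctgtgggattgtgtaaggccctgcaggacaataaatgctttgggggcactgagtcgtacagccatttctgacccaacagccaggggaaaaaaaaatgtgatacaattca
Edn1: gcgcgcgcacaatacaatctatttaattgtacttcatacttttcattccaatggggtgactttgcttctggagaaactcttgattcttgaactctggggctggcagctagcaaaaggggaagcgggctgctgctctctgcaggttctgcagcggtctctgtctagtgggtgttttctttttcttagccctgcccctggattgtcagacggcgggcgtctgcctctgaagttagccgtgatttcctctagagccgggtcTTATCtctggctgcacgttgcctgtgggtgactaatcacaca
The marked RBPJ core began 30 bases after the listed start in Sema3g, at position -153 in Fbln5 and at position -178 in Bmx, and the marked GATA core began 8 bases after it in Edn1. With either strand counted, TGGGAA was in 5 of the 16 promoters available for the 20 genes highest in arterial cells (31.2%) and in 3 of the 11 available for the 15 lowest (27.3%), against 25.5% of all 27025 promoters of that length. GATAA was in 4 of the 16 (25%) and in 2 of the 11 (18.2%), against 25.8% of all promoters. Both motifs were thus about as frequent in all promoters as in those of the named genes.

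The label was read first on its 7 markers, of which Sema3g, Gja4, Gja5 and Stmn2 chose the cells and Hey1, Sox17 and Mecom did not. Levels are CPM, the counts summed over each set of cells and scaled to a total of 1000000. Sema3g, a secreted semaphorin on chromosome 14 (31217860 to 31230352 on GRCm38, the assembly behind mm10), had 606 CPM in arterial cells and 22.7 CPM in the other blood endothelial cells. Gja4, a connexin on chromosome 4 (127311421 to 127314039), had 543 CPM in arterial cells and 23.8 CPM in the others. Stmn2, a microtubule regulator best known from neurons, had 668 CPM in arterial cells and 8.83 CPM in the others. Gja5, the connexin of large arteries on chromosome 3 (96904693 to 97077416), had 135 UMIs (109 CPM) in arterial cells and 0 in the others, which makes it at least 164-fold higher with a bound of 3 counts over the group. These 4 values follow from the rule and are given as a description.

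The 3 markers outside the rule were also higher in the arterial cells. Hey1, a Notch target and transcriptional repressor on chromosome 3 (8663359 to 8667256), had 338 CPM (95% interval 306 to 372) in arterial cells and 31.6 CPM (26.6 to 37.2) in the others, 10.7-fold apart (8.82 to 13.02). Sox17 (chromosome 1, 4490931 to 4497354) had 432 CPM in arterial cells and 98.7 CPM in the others, 4.38-fold apart (3.86 to 4.98). Mecom, a zinc finger transcription factor (chromosome 3, 29951296 to 30548008), had 506 CPM in arterial cells and 80.1 CPM in the others, 6.31-fold apart (5.54 to 7.20). To compare shares of cells at 1 depth, cells were thinned to 2000 UMIs, which kept 265 arterial and 868 other cells and left out 54 and 155 that were shallower. At that depth a Sox17 UMI was found in 54.7% of arterial cells and 17.1% of the others, against 67.7% and 28.0% before thinning. Hey1 was found in 42.6% of thinned arterial cells and 7.72% of the others, against 55.8% and 10.4% before thinning. Free RNA was gauged on the 1326 cells with a Ptprc UMI, which should lack these genes and whose median depth was 8506.5 UMIs, against 3529 in arterial cells and 4148 in the others. Of these Ptprc-positive cells, thinned alike, 0.0766% had a Hey1 UMI and 0% a Sox17 UMI. Hey1, Sox17 and Mecom are markers of the label and stand on a list chosen with earlier results of these data known. Their higher levels therefore describe the cells and are no independent check of the label.

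Genes of endothelium in general were present in both sets. Cdh5, the VE-cadherin of endothelial junctions, had 1207 CPM in arterial cells and 1186 CPM in the others, and Flt1, a VEGF receptor, had 3153 and 3168 CPM in the same order. Pecam1 had 1409 CPM in arterial cells and 1960 CPM in the others, and Emcn, a sialomucin best known from veins and capillaries, had 1113 and 1712 CPM in that order. Fabp4, whose promoter drives the Cre, had 8054 CPM in arterial cells and 10690 CPM in the others. Apart from Fabp4 these genes are part of the endothelial gate, so their presence follows from the rule.

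How firmly single cells were called varied. The 4-gene sum had a lowest value of 5.02, a median of 14.1 and a highest value of 67.9 UMIs per 10000 over the 319 cells, with quartiles at 8.22 and 28.3. The call rested on 1 UMI in 20 cells, on 2 in 46, on 3 in 46 and on at least 4 in 207. Of the cells, 252 (79.0%) had at least 2 of the 4 genes and 45 had all 4. Sema3g was found in 251 cells, Gja4 in 237, Stmn2 in 205 and Gja5 in 63. Of the 1023 other cells, 842 had none of the 4 genes and 181 (17.7%) had some, up to a sum of 4.93. The sums therefore ran on across the threshold without a gap.

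**Figure D1:**
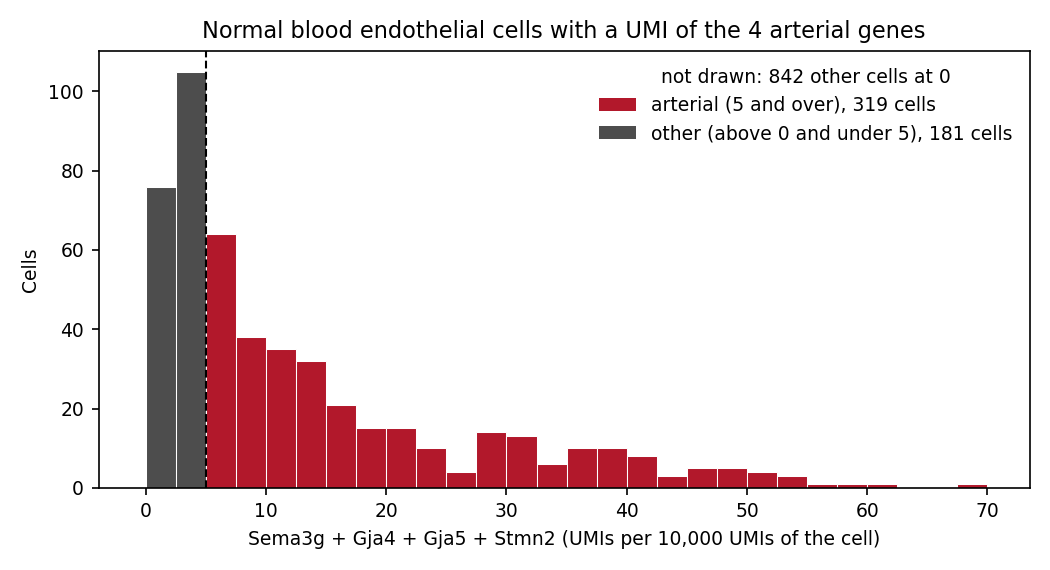
Number of normal blood endothelial cells (vertical axis) by the summed UMIs of Sema3g, Gja4, Gja5 and Stmn2 per 10,000 UMIs of the cell (horizontal axis), for the 319 arterial cells (red) and the 181 other cells with a UMI of these genes (grey). The dashed line is the threshold of 5, the 842 other cells at 0 are not drawn, and cells lie on both sides of the line with no gap at it.

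Cells just inside and just outside the threshold were alike in part. The 52 cells with a sum from 5 to under 7 had 187 CPM of Fbln5, 151 CPM of Hey1, 210 CPM of Sox17 and 50.3 CPM of Aplnr. The 66 cells with a sum from 3 to under 5 had 119 CPM of Fbln5, 105 CPM of Hey1, 153 CPM of Sox17 and 95.2 CPM of Aplnr. The share of arterial cells also varied with depth. It was 28.3% and 28.7% in the 2 shallower quartiles of blood endothelial cells by UMIs and 20% and 18.2% in the 2 deeper ones. In a shallow cell 1 UMI weighs more, but the part of this in the variation was not tested. With cells thinned to equal depth, 353 of 1148 (30.75%) were called arterial.

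Genes outside the rule were graded over the sum. Fbln5 had 10.7 CPM in blood endothelial cells at 0, 45.5 CPM above 0 and under 5, 195 CPM from 5 to under 10, 609 CPM from 10 to under 20, 1125 CPM from 20 to under 40 and 1639 CPM at 40 and over. Edn1 had 39.0, 84.8, 225, 388, 698 and 1052 CPM in the same 6 bins, and Mecom had 63.4, 142, 320, 465, 664 and 835 CPM. These 3 genes were higher in each next bin. Glul and Tgfb2 were not: Glul had 822 CPM from 10 to under 20 and 546 CPM at 40 and over, and Tgfb2 had 360 and 241 CPM in these bins. In the other direction Aqp1, a water channel of capillary endothelium, had 1762, 1045, 667, 378, 215 and 88.4 CPM over the 6 bins. Car4, a carbonic anhydrase on the luminal face of capillaries, had 427, 588, 342, 126, 56.1 and 0 CPM, with its highest level in cells that had some of the 4 genes but were under the threshold. Plvap was 4104 CPM at 0 and 1663 CPM in the 32 cells at 40 and over, so it remained measurable in the most arterial cells.

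**Figure D2:**
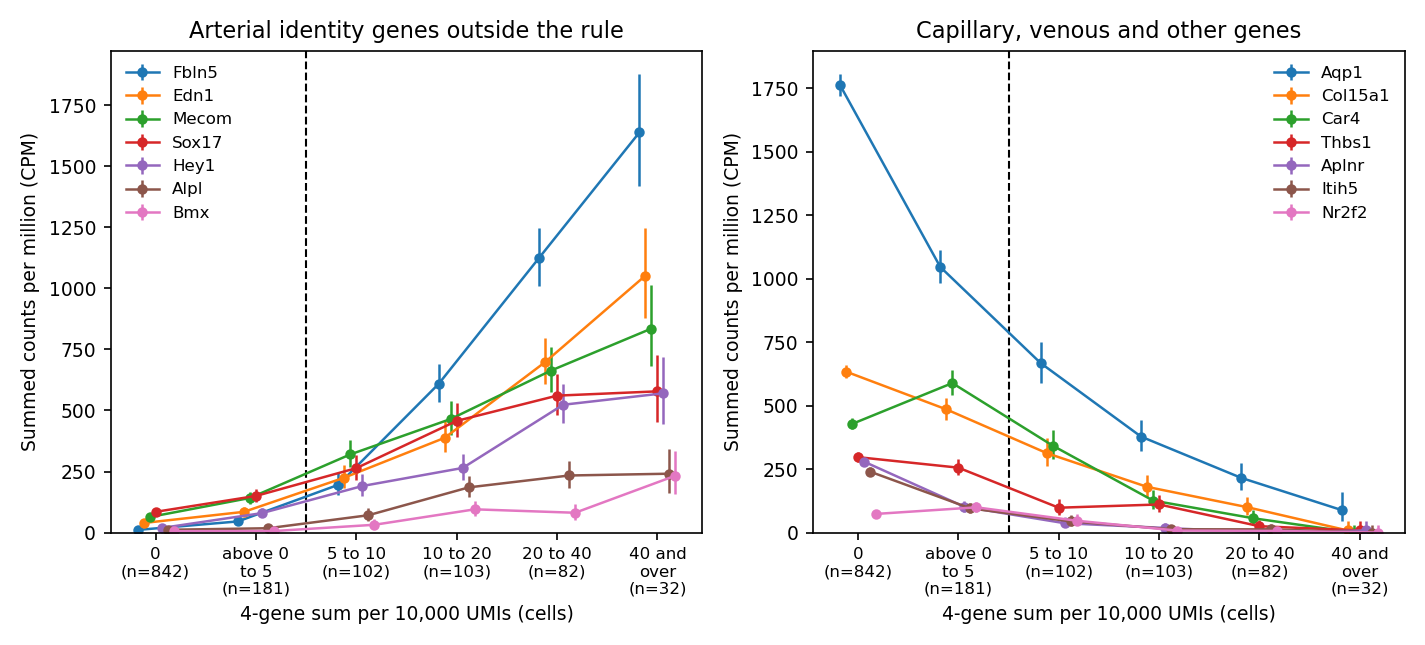
Summed CPM with 95% Poisson intervals (vertical axes) of 7 arterial identity genes that the rule did not use (left) and of 7 capillary, venous and other genes (right), in normal blood endothelial cells binned by the 4-gene sum (horizontal axes). The dashed line is the threshold between arterial and other cells; Fbln5 reaches 1639 CPM in the highest bin, and Aqp1 is at 1762 CPM in the lowest and 88.4 CPM in the highest.

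Outside the rule, 3820 genes reached 50 CPM in one sum or both; 123 of them (3.22%) were higher in arterial cells by 2-fold or more and 90 (2.36%) lower, all with intervals that left out 1, and the median log2 fold was 0.02. The rule used this contrast, so these counts describe how far the chosen cells differ and support nothing. The genes named next are the 20 highest and the 15 lowest among those also found in at least 10% of cells of the higher set. Mitochondrial, ribosomal protein, Xist, Tsix and Y-linked genes were left out of this ranking. So were unnamed genes on no list and the markers of other cell types.

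Several of the highest genes make or modify extracellular matrix. Fbln5, an organiser of elastic fibres (chromosome 12, 101746565 to 101819055), had 882 UMIs (709 CPM) in arterial cells and 82 (18.1 CPM) in the others, 39.2-fold apart (31.2 to 49.7), and was found in 60.8% of arterial cells and 3.81% of the others. Col8a1, a short-chain network collagen, had 142 CPM in arterial cells and 0.883 CPM in the others. Fn1, fibronectin, had 172 CPM in arterial cells and 8.61 CPM in the others, 19.98-fold apart (14.2 to 28.9). Fibroblast-rich RNA carries all 3 genes: in the 1492 cells with high collagen RNA, Fbln5 had 186 CPM, Col8a1 65.8 CPM and Fn1 1335 CPM. Fn1 also had 1556 CPM in Ptprc-positive cells. Of other genes among the 20 highest, Tmem100 had 167 CPM and Pcsk5 91.7 CPM in the cells with high collagen RNA. Nebl had 0.279 CPM there and Mal 0. The 7 fibroblast markers outside the rule summed to 89.2 CPM in arterial cells and 87.0 CPM in the others, and the part of fibroblast RNA in these differences was not tested.

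Secreted signals were a further group among the highest genes. Edn1, the precursor of the vasoconstrictor endothelin (chromosome 13, 42301476 to 42307990), had 598 UMIs (481 CPM) in arterial cells and 221 (48.8 CPM) in the others, 9.85-fold apart (8.43 to 11.5). Tgfb2, a TGF-beta ligand, had 288 CPM in arterial cells and 30.9 CPM in the others, 9.31-fold apart (7.64 to 11.4). Dkk2, a modulator of Wnt signalling, had 70.7 CPM in arterial cells and 2.21 CPM in the others. Each interval lay well above 2-fold. Pcsk5, a proprotein convertase that cleaves secreted precursors, had 98.9 CPM in arterial cells and 2.43 CPM in the others.

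Of the enzymes and signalling proteins, Bmx, a Tec-family tyrosine kinase known from arterial endothelium (chromosome X, 164192842 to 164258193), had 84.4 CPM in arterial cells and 5.52 CPM in the others, 15.3-fold apart (9.81 to 24.7). Alpl, the tissue-nonspecific alkaline phosphatase, had 166 CPM in arterial cells and 12.6 CPM in the others. Glul, glutamine synthetase, had 702 CPM in arterial cells and 96.7 CPM in the others, 7.26-fold apart (6.46 to 8.16), and was the gene of these 20 found in the highest share of arterial cells, 76.2% against 24.6%. Glul is not particular to endothelium here, since Ptprc-positive cells had 465 CPM. Nebl, the actin-binding nebulette, had 123 UMIs in arterial cells and 2 in the others, 224-fold apart with an interval of 60.7 to 1870 that the 2 UMIs leave wide. The membrane proteins Tmem100 and Mal had 115 and 63.5 CPM in arterial cells and 1.99 and 0.662 CPM in the others. The remaining 7 of the 20, Eps8l2, St8sia6, Car7, Atp13a3, Ptprr, Alox12 and Hey1, were between 7.50-fold and 34.8-fold higher.

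Among the 15 lowest, a receptor and a transcription factor of venous endothelium stood beside enzymes and other genes. Aplnr, the apelin receptor of venous and sprouting endothelium, had 23 UMIs (18.5 CPM) in arterial cells and 1092 (241 CPM) in the others, 13.04-fold lower (8.65 to 20.7). Nr2f2, the venous nuclear receptor, had 24 UMIs (19.3 CPM) in arterial cells and 357 (78.8 CPM) in the others, 4.09-fold lower (2.70 to 6.46). Odc1, which starts polyamine synthesis, had 13.7 CPM in arterial cells and 164 CPM in the others, 11.97-fold lower (7.43 to 20.7). Itih5, of the inter-alpha-trypsin inhibitor family, had 21.7 CPM in arterial cells and 209 CPM in the others. Chst2, a sulfotransferase of glycans, had 31.4 CPM in arterial cells and 221 CPM in the others, and was found in 9.09% of arterial cells and 50.7% of the others. Sox4, a transcription factor, had 51.4 CPM in arterial cells and 233 CPM in the others. Ptgs1, a cyclooxygenase, had 47.4 CPM in arterial cells and 211 CPM in the others. The other 8, Car8, Brip1, Chrm2, Trp53i11, Cyp1a1, Cd74, Fam174b and Cysltr1, were between 4.26-fold and 8.15-fold lower.

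**Figure D3:**
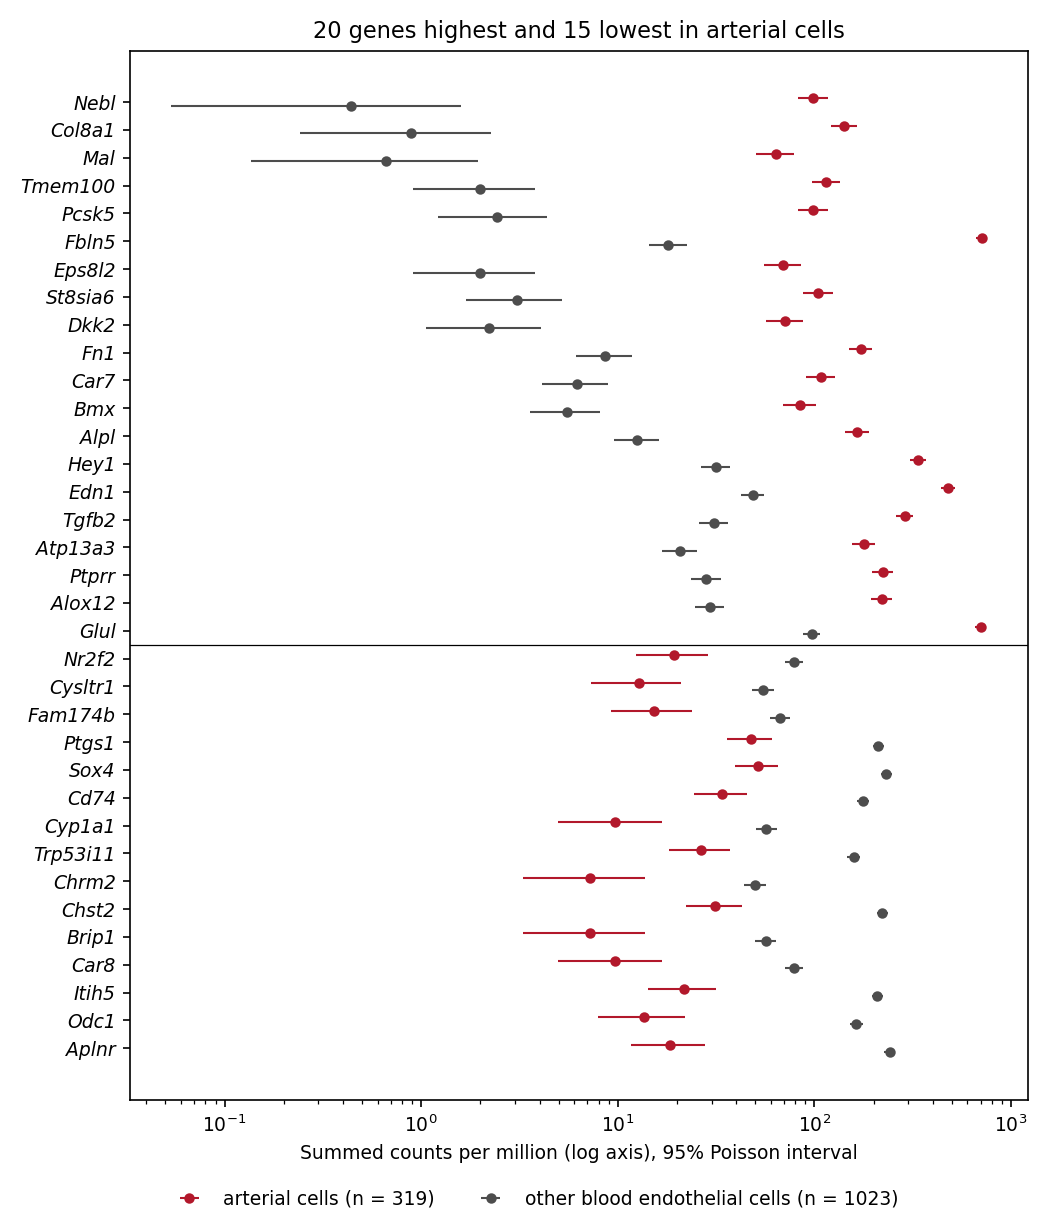
Summed CPM with 95% Poisson intervals (horizontal log axis) in the 319 arterial cells (red) and the 1023 other blood endothelial cells (grey) for the 20 genes highest and the 15 lowest in arterial cells. Fbln5 lies at 709 CPM in arterial cells and 18.1 CPM in the others, and Aplnr at 18.5 and 241 CPM in the same order.

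Gene lists were then read by role. In a list, a member counts as measured with at least 20 CPM in either sum, and as higher or lower when at least 2-fold apart; over all 6723 genes so measured, 3.05% were higher, 2.74% were lower and the median log2 fold was 0.02. Of 32 measured arterial identity genes outside the rule, 24 were higher and none lower, with a median log2 fold of 1.74 (1.17 to 2.58). Nrp1, a VEGF and semaphorin co-receptor, at 1753 CPM in arterial cells and 2229 CPM in the others, and Tinagl1, at 523 and 576 CPM in that order, were the 2 members with a negative value. Of 15 measured vein genes, 8 were lower and none higher, with a median log2 fold of -1.05 (-2.15 to -0.23). They included Nrp2, at 102 CPM in arterial cells and 292 CPM in the others, and Ramp3, at 166 and 344 CPM in that order. Vwf, often used for veins, was not among them, with 87.6 CPM in arterial cells and 68.7 CPM in the others. Both lists hold genes that were known from earlier results on these data, and the rule had used the contrast.

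Of 17 measured capillary genes, 1 was higher and 2 were lower, and the median log2 fold was -0.20 (-0.59 to 0.48). Aqp1 had 402 CPM in arterial cells and 1609 CPM in the others, 4.003-fold lower (3.66 to 4.39), and Car4 had 166 and 462 CPM in that order, 2.77-fold lower (2.40 to 3.22). Cd36, a fatty acid transporter, was higher, with 1146 CPM in arterial cells and 492 CPM in the others, 2.33-fold apart (2.18 to 2.49). Gpihbp1, which holds lipoprotein lipase on the capillary wall, had 951 CPM in arterial cells and 1433 CPM in the others. Plvap had 2836 CPM in arterial cells and 3973 CPM in the others, and at 2000 UMIs it was found in 94.0% of arterial cells and 97.5% of the others, against 1.76% of Ptprc-positive cells. Plvap RNA was thus found in nearly all of these arterial cells. Of the 8 measured genes of fenestrated endothelium, Esm1 was higher, at 420 CPM in arterial cells and 206 CPM in the others, and Plpp1 lower, at 386 and 1052 CPM in that order.

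**Figure D4:**
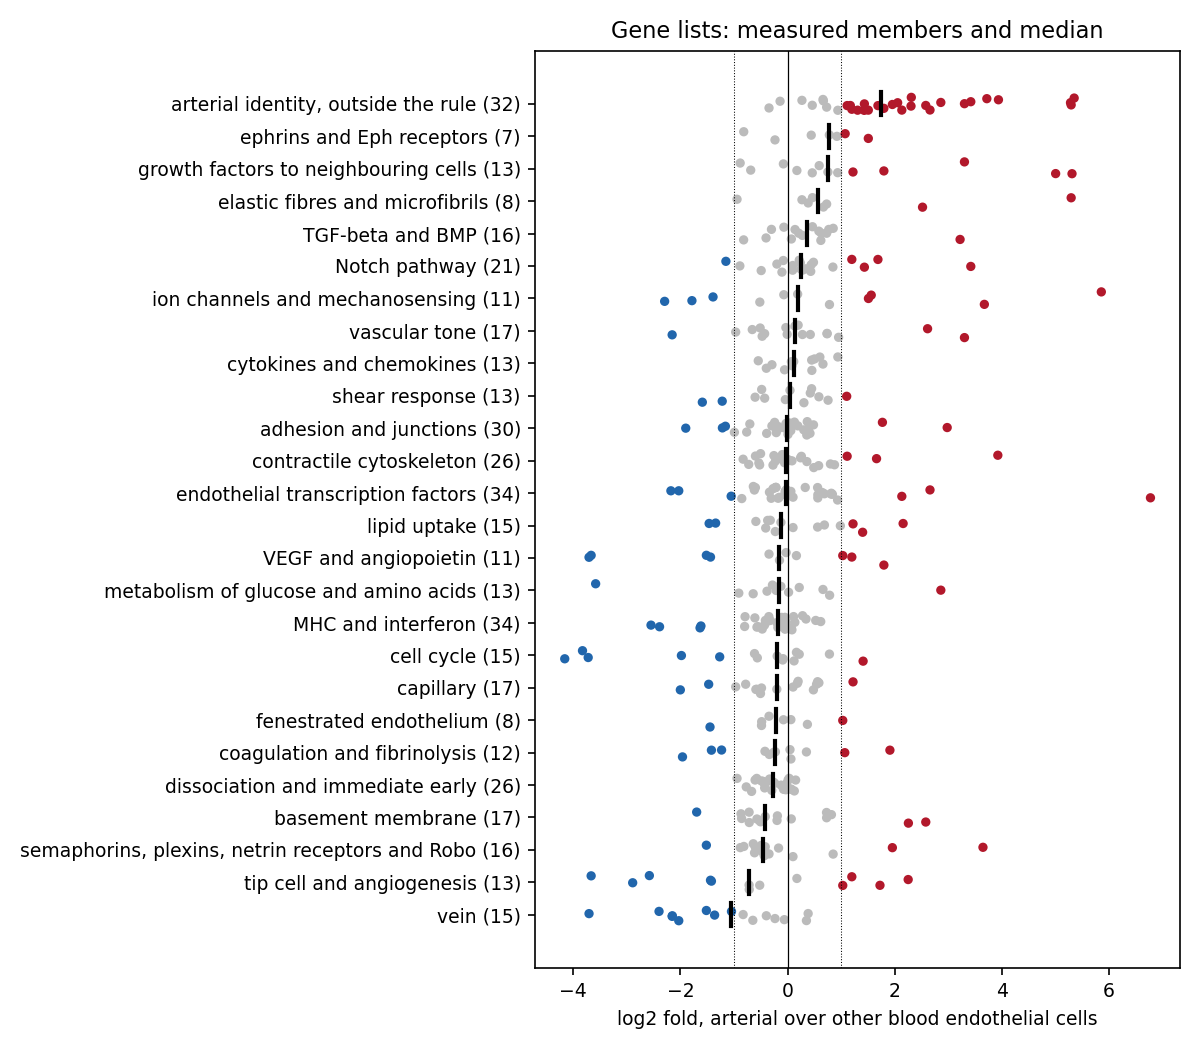
Log2 fold of arterial over other blood endothelial cells (horizontal axis) of each measured member of 26 gene lists, ordered by median (black bar), with the number measured in brackets; red and blue points are at least 2-fold higher and lower, and dotted lines mark 2-fold. The arterial identity list has the highest median, 1.74, and the vein list the lowest, -1.05.

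Among the ligands of the Notch pathway, Jag1 had 91.6 CPM in arterial cells and 28.5 CPM in the others, 3.22-fold apart (2.48 to 4.17). Jag2 had 125 CPM in arterial cells and 46.1 CPM in the others, and Dll4 had 233 and 102 CPM in that order, 2.30-fold apart (1.97 to 2.66). The receptors Notch1, at 492 CPM in arterial cells and 274 CPM in the others, and Notch4, at 157 and 112 CPM in that order, were less than 2-fold apart, as was the effector Rbpj, at 49.0 and 45.9 CPM. Lfng, a glycosyltransferase that modifies Notch receptors, was lower, at 28.1 CPM in arterial cells and 62.5 CPM in the others, 2.22-fold (1.56 to 3.25). With Hey1, 4 of 21 measured members were higher and 1 was lower, at a median log2 fold of 0.25. Among targets, Hes1 had 482 CPM in arterial cells and 405 CPM in the others, 1.19-fold apart (1.08 to 1.31).

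Of the guidance and contact signals, Efnb2, the ephrin-B2 of arteries, had 560 CPM in arterial cells and 197 CPM in the others, 2.84-fold apart (2.57 to 3.14), while its venous receptor Ephb4 had 155 and 183 CPM in that order. The receptor Epha4 had 202 CPM in arterial cells and 95.8 CPM in the others; these 2 were the higher of 7 measured ephrins and Eph receptors, with none lower. Unc5b, a netrin receptor, had 184 CPM in arterial cells and 47.5 CPM in the others, 3.88-fold apart (3.21 to 4.69), and Ntn4, a netrin, had 44.2 and 3.53 CPM in that order. With Nrp2, these made 2 higher and 1 lower of 16 measured semaphorins, plexins, netrin receptors and Robo genes.

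In the VEGF and angiopoietin list 3 of 11 measured were higher and 4 lower. Vegfc had 202 CPM in arterial cells and 58.1 CPM in the others, 3.47-fold apart (2.91 to 4.15). Apln, the apelin peptide of tip cells, had 5 UMIs in arterial cells, all in 1 cell, and 231 in the others, and Angpt2 had 12.1 and 32.7 CPM in that order. Ligand and receptor of the apelin pair were therefore both lower in arterial cells. The tip cell list was mixed, with 4 of 13 higher, among them the chemokine receptor Cxcr4 at 78.8 CPM in arterial cells and 16.6 CPM in the others, and 5 lower. Its ligand Cxcl12 had 2818 CPM in arterial cells and 1471 CPM in the others, 1.92-fold apart (1.84 to 2.00), and no member of the 13 measured cytokines and chemokines was 2-fold apart in either direction.

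Among genes of vascular tone, Edn1 and Ace were higher and Ptgs1 lower of 17 measured. Ace, angiotensin-converting enzyme, had 463 CPM in arterial cells and 75.7 CPM in the others, 6.11-fold apart (5.34 to 7.01). Nos3, the endothelial nitric oxide synthase, had 84.4 CPM in arterial cells and 62.9 CPM in the others. Ednrb, an endothelin receptor, had 228 CPM in arterial cells and 445 CPM in the others, 1.96-fold lower (1.73 to 2.22). Of 11 measured ion channels and mechanosensing genes, 4 were higher, among them Trpv4 at 37.8 CPM in arterial cells and 12.8 CPM in the others, and 3 were lower, among them Piezo2 at 57.1 and 150 CPM in that order. Of 13 measured genes of the shear response, Heg1 was higher, at 719 CPM in arterial cells and 335 CPM in the others, and Ctgf and Trib1 lower. Klf2, the flow-induced transcription factor, had 1636 CPM in arterial cells and 969 CPM in the others, 1.69-fold apart (1.60 to 1.78). Of the measured gap junction genes outside the rule, Gja1 and Gjc1, none was 2-fold apart, with Gja1 at 191 CPM in arterial cells and 165 CPM in the others.

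Among 34 measured endothelial transcription factors, Mecom, Sox17 and Tox2 were higher and Sox4, Nr2f2 and Meox1 lower. Tox2, a factor of the HMG-box family, had 30 UMIs in arterial cells and 1 in the others, 109-fold apart with an interval of 18.2 to 4456. The SOX-F factors other than Sox17 were closer, with Sox18 at 1449 CPM in arterial cells and 979 CPM in the others and Sox7 at 71.5 and 74.2 CPM in that order. Meox1 had 135 CPM in arterial cells and 280 CPM in the others. The other 28 were less than 2-fold apart, and the median log2 fold of the list was -0.03.

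Of 8 measured elastic fibre genes, Fbln5 and Fbn1, fibrillin, were higher, the second at 94.9 CPM in arterial cells and 16.6 CPM in the others, 5.73-fold apart (4.25 to 7.76). Eln, elastin itself, had 133 CPM in arterial cells and 83.5 CPM in the others. Of 17 measured basement membrane genes, Mgp and Col18a1 were higher and Col15a1 lower. Col15a1 had 186 CPM in arterial cells and 602 CPM in the others, 3.24-fold lower (2.83 to 3.72), and Col4a1 and Col4a2, the main network collagens, had 1757 and 971 CPM in arterial cells and 3182 and 1774 CPM in the others. Mgp, an inhibitor of calcification, had 210 UMIs in 27 arterial cells, 146 of them in 5 cells, and 128 UMIs in 72 of the others. Mgp is also carried by cells with high collagen RNA, at 4039 CPM, and its part in the arterial count was not tested.

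Of 30 measured adhesion and junction genes, Ptprr and Cldn5 were higher and Jam3, Cd34 and Pcdh12 lower. Cldn5, the tight junction claudin of endothelium, had 190 CPM in arterial cells and 55.6 CPM in the others, 3.41-fold apart (2.84 to 4.09), and was found in 17.9% and 6.84% of cells. Cd34 had 391 CPM in arterial cells and 908 CPM in the others, and Jam3 had 106 and 396 CPM in that order. Of 15 measured genes of lipid uptake, 3 were higher, Slc27a3, Aqp7 and Cd36, and 2 lower, Scarb1 and Fabp5. Fabp5 had 405 CPM in arterial cells and 1028 CPM in the others, 2.54-fold lower (2.31 to 2.79). Fabp4, of the same family, was 1.33-fold lower (1.30 to 1.36), so the difference was larger for Fabp5.

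Of 12 measured coagulation genes, Plat, tissue plasminogen activator, was higher at 105 CPM in arterial cells and 27.8 CPM in the others, as was Entpd1, while Thbs1, Plaur and Tfpi were lower. Thbs1, thrombospondin, had 74.0 CPM in arterial cells and 288 CPM in the others, 3.89-fold lower (3.15 to 4.86). Thbd, thrombomodulin, had 478 CPM in arterial cells and 464 CPM in the others. Of 13 measured growth factors to neighbouring cells, 5 were higher and none lower: Igf2, Dkk2, Edn1, Vegfc and Pdgfd. Igf2 had 87 UMIs in 20 arterial cells, 56 of them in 5 cells, and 8 UMIs in the others. Of 16 measured TGF-beta and BMP genes, Tgfb2 was higher and none lower, and of 13 measured genes of glucose and amino acid metabolism, Glul was higher and Odc1 lower.

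In the cell cycle list 1 of 15 measured was higher and 5 were lower. Cdkn1c, a cyclin-dependent kinase inhibitor, had 121 CPM in arterial cells and 45.7 CPM in the others, 2.66-fold apart (2.14 to 3.29), and Ccnd1, a cyclin, had 215 and 518 CPM in that order. Mki67, Top2a, Cdk1 and Cenpf together had 12 UMIs in 11 arterial cells and 496 UMIs in 87 of the others. Of these 496 UMIs, 403 were in 5 cells, so the size of the difference in summed level rested largely on few cells. Before thinning, a UMI of these genes was found in 3.45% of arterial cells and 8.50% of the others. None of the 26 measured genes of dissociation stress and immediate early response was 2-fold apart, with a median log2 fold of -0.28. Of 26 measured genes of the contractile cytoskeleton, 3 were higher and none lower, and they included S100a4, a calcium-binding protein, at 40.2 CPM in arterial cells and 2.65 CPM in the others, and Crip1, a LIM domain protein, at 2386 and 1104 CPM in that order.

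RNA of other cell types was looked at beside these results. Of 17 smooth muscle and pericyte markers, 11 were measured, 1 (Acta2) was higher and 3 were lower, and their summed level was 481 CPM in arterial cells and 569 CPM in the others, with 3 and 2 at 0. Their median log2 fold, -0.50, was positive under 4 alternatives. Acta2 had 46 UMIs in 11 arterial cells and 53 UMIs in 17 of the others. When the 21 arterial and 71 other cells with mural RNA were left out, 127 genes were higher and 94 lower, and all of the 20 highest and 15 lowest were still at least 2-fold apart. Gja4 is carried by mural cells too, at 332 CPM in the 117 cells with high mural RNA. In those cells Gja5 had 10 UMIs (13.9 CPM), Sema3g 1.39 CPM and Stmn2 none. Of the 319 arterial cells, 26 had Gja4 alone of the 4 genes. Summed acinar markers were 1000 CPM in arterial cells and 1102 CPM in the others (11 of 12 found measured, none 2-fold apart), and summed macrophage markers 201 and 196 CPM in that order (3 of 12 measured, none 2-fold apart). Markers of T or NK cells and ductal cells were all at 0 in arterial cells. Erythroid markers had 2.41 CPM in arterial cells and 583 CPM in the others, where 2241 of 2638 haemoglobin UMIs came from 1 cell. The part of foreign RNA in the other differences was not tested.

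The arterial cells were also split by Gja5. The 63 cells with a Gja5 UMI had a median of 4482 UMIs and a median 4-gene sum of 35.04, and the 256 without had a median of 3461 UMIs and a sum of 11.97. Gja5 is a gene of the rule and is more often seen in deeper cells, so what follows is a description. Of 2049 genes that reached 100 CPM with or without Gja5, 52 (2.54%) were higher in cells with Gja5 by 2-fold or more with an interval above 1, and 42 (2.05%) lower with an interval below 1. In cells thinned to 2000 UMIs these counts were 86 and 79. There 100 CPM stands for fewer UMIs, and the number of genes that reached it is not given. The thinned counts therefore have no share and do not show a stronger split.

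Growth factors, enzymes and matrix genes were among those higher in cells with Gja5. Vegfc had 453 CPM in cells with Gja5 and 125 CPM in those without, 3.62-fold apart (2.81 to 4.68). Bmx had 199 CPM with Gja5 and 49.4 CPM without, 4.03-fold apart (2.70 to 6.05). Edn1 had 919 CPM with Gja5 and 347 CPM without, Ace 929 and 320 CPM, Fbln5 1320 and 522 CPM, and Clu, the extracellular chaperone clusterin, 387 and 118 CPM, each given with Gja5 before without. Mgp had 576 CPM with Gja5 and 44.1 CPM without, 13.1-fold apart (9.27 to 18.8). Igf2 had 213 and 26.3 CPM in that order, and Kcne3, a potassium channel subunit, 130 and 11.6 CPM. Of all UMIs in arterial cells, 69.5% of Mgp and 64.4% of Igf2 lay in few cells, which the interval for Mgp leaves out. In thinned cells Mgp was found in 16.1% (7.62 to 28.3) with Gja5 and 5.26% (2.66 to 9.22) without. Igf2 was found in 12.5% (5.18 to 24.1) and 2.87% (1.06 to 6.14) in that order. Vwf was also higher, at 192 CPM with Gja5 and 55.7 CPM without. The 7 fibroblast markers outside the rule summed to 58.3 CPM with Gja5 and 98.7 CPM without.

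Not all arterial genes followed Gja5. Of 30 measured arterial identity genes outside the rule, 9 were higher and 1 lower, at a median log2 fold of 0.60. Hey1 had 545 CPM with Gja5 and 274 CPM without, 1.99-fold apart (1.62 to 2.43), and Sox17 had 538 and 400 CPM in that order. Glul, at 552 CPM with Gja5 and 748 CPM without, and Tgfb2, at 230 and 306 CPM in that order, lay the other way but less than 2-fold apart. Cxcl12 was the arterial identity gene that was lower, at 1358 CPM with Gja5 and 3266 CPM without, 2.41-fold.

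Of 16 measured capillary genes, 5 were lower in cells with Gja5 and none higher, at a median log2 fold of -0.57. Car4 had 3 UMIs (10.3 CPM) with Gja5 and 204 UMIs (214 CPM) without, a ratio of 0.0480 (0.00982 to 0.142). Aqp1 had 161 CPM with Gja5 and 476 CPM without, Rgcc 250 and 997 CPM, and Ednrb 65.1 and 277 CPM in that order. Plvap was close, at 2458 CPM with Gja5 and 2952 CPM without. Cd36, higher in arterial cells as a whole, had 1155 CPM with Gja5 and 1144 CPM without. Fbln5, Edn1, Aqp1 and Car4 thus lay the same way in this split as over the bins of the 4-gene sum, to which the split is tied.

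The library held cells of mice of both sexes, which gives 2 sets of cells from different mice. Among arterial cells 79 had an Xist UMI and no UMI of a Y-linked gene, 124 had a Y-linked UMI and no Xist, 1 had both and 115 had neither. Among the others these were 275, 367, 6 and 375. All 20 highest genes were at least 2-fold higher in both sets, and 14 of the 15 lowest at least 2-fold lower in both. These genes were chosen as the most extreme in sums that include both sets, so such an outcome was largely set by the choice. Fbln5 had 928 CPM in arterial cells with Xist and 5.52 CPM in the others with Xist, and 642 CPM in arterial cells with a Y-linked gene and 22.2 CPM in the others. Hey1 was 10.3-fold higher with Xist and 12.4-fold with a Y-linked gene, and Aplnr had 1 UMI in arterial cells against 277 in the others with Xist, and 8 against 491 with a Y-linked gene. Some genes outside these lists were less alike. Cldn5 was 11.3-fold higher with Xist and 1.73-fold (1.32 to 2.25) with a Y-linked gene, and Esm1 1.29-fold and 2.44-fold in that order. The number of mice in each set is unknown, so this shows the spread over at least 1 mouse of each sex and is no test.

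The exception was Cd74, the invariant chain of MHC class II. With Xist it had 7 UMIs (20.4 CPM) in arterial cells and 587 UMIs (463 CPM) in the others. With a Y-linked gene it had 22 UMIs (41.3 CPM) in arterial cells and 84 UMIs (43.3 CPM) in the others, 36 of these in 1 cell. The summed MHC class II genes Cd74, H2-Aa, H2-Ab1 and H2-Eb1 followed it, at 134 CPM in arterial cells and 990 CPM in the others with Xist, and at 63.8 and 105 CPM in that order with a Y-linked gene. The level that differed between the sets was mainly that of the other cells. MHC class I genes were close over all cells, with H2-D1 at 2259 CPM in arterial cells and 2318 CPM in the others, and of 34 measured MHC and interferon genes the 4 of class II were the ones 2-fold lower.

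**Figure D5:**
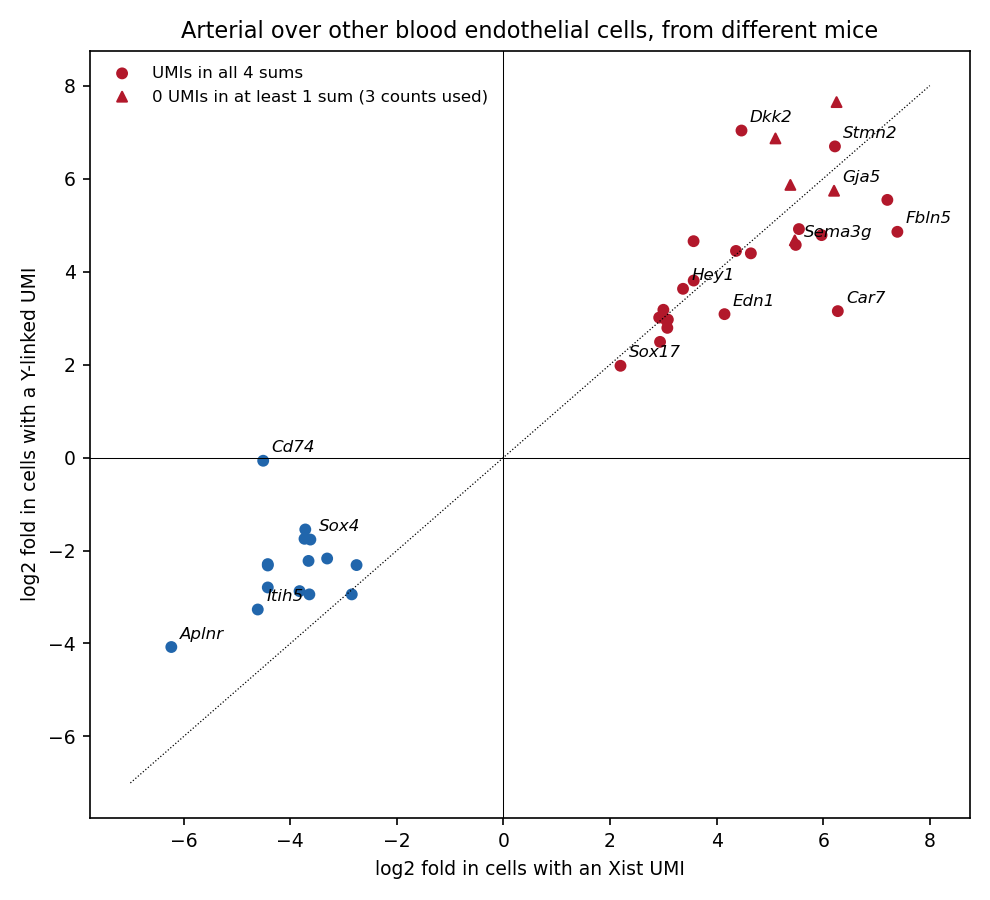
Log2 fold of arterial over other blood endothelial cells in cells with an Xist UMI (horizontal axis) and in cells with a Y-linked UMI (vertical axis), for the arterial markers and the 20 highest genes (red) and the 15 lowest (blue); triangles have 0 UMIs in at least 1 sum, set to 3 counts, and the dotted line marks equal values. All points lie in the same direction in both sets, and all but Cd74 are at least 2-fold apart in both. In cells with a Y-linked UMI, Cd74 is near equal, at 0.953-fold with an interval of 0.567 to 1.54.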

How the data were processed

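Droplet single-cell RNA sequencing of the 3′ ends of transcripts was analysed for 1 normal and 1 tumour library. The authors deposited UMI counts for each gene and cell, as whole numbers that were not normalized; Cell Ranger 3.1.0 and mm10 are named in the submitters' processing notes. The normal library held 5437 barcodes and the tumour library 2942, and 4 barcodes were in both, none of them an arterial cell.

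Counts were summed over the cells of each set and scaled to CPM. A fold is arterial over other, with an exact 95% interval from the Poisson counting error of both sums; shares have exact Clopper-Pearson intervals, and all cover counting error only. The median of a list has an interval from binomial order statistics. For a sum of 0, 3 counts over the group served as the limit. No test across samples was possible. Named genes were the 20 highest and 15 lowest with at least 50 CPM in either sum, found in at least 10% of cells of the higher set, and members of lists past 2-fold; others were chosen after their values were seen. The members and the 40 lists, of whose 674 genes 666 were found, were chosen with earlier results of these data known. Scrublet, run through scanpy 1.11.5, marked 101 of 4616 normal cells as doublets, 0 arterial and 2 other blood endothelial; they were kept. Thinning drew 2000 UMIs per cell with 1 seed. Y-linked genes were Ddx3y, Eif2s3y, Kdm5d and Uty. Cells with high mural RNA had at least 50 UMIs per 10000 of mural genes; cells with mural RNA left out as an alternative had at least 5. Calls and intervals were tried on simulated sums with Poisson counting error alone. These leave out UMIs that lie in few cells, so they do not show how the intervals hold for such genes. numpy 2.4.6, scipy 1.17.1, pandas 2.3.3 and matplotlib 3.10.9 were used. Alternatives changed the threshold, cell filter, doublets, depth, weighting, scaling, minimum level and the cells compared. Gene positions are from GENCODE on GRCm38.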

Additional observations from a re-analysis of the deposited data

Results flagged for a closer look

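Acta2, the smooth muscle actin, differed in direction between cells of different mice. Its log2 fold of arterial over other blood endothelial cells was 4.20 in cells with Xist, from 25 UMIs in 5 arterial cells, 14 of them in 1 cell, and 5 UMIs in the others. It was -1.84 in cells with a Y-linked gene, from 3 UMIs in arterial cells and 39 in the others. The difference between the sets was not tested.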

How the results depend on the processing

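No paired analysis was possible because each group is 1 library and the results come from no test. The 20 highest genes were at least 2-fold higher under all 13 alternatives of cells and scaling, and the 15 lowest at least 2-fold lower under all but cells with a Y-linked gene, with 14. The genes were chosen as the most extreme in these same cells, so this is no test of them. Of 1838 values of named genes, 1564 moved by less than their counting error, 264 moved by more, and 10 of genes at least 2-fold apart changed sign; the causes were not tested. Folds with 3 or fewer UMIs in both groups were left out. Against 319 cells, 79 had Xist and 124 a Y-linked gene. Against 123 genes higher and 90 lower, cells with Xist gave 194 and 185, a minimum of 20 CPM 205 and 184, and no minimum (at least 1 UMI in each sum) 602 and 806; the higher minimum tests fewer genes. A threshold of 10 gave 140 lower. The median log2 fold of the smooth muscle and pericyte markers, -0.50, was 0.69 after thinning, 0.90 with Xist and 0.78 with other cells that had a UMI of the 4 genes left out, an alternative chosen after seeing the data, and 0.13 at a minimum of 50 CPM. The split by Gja5, 52 higher and 42 lower, gave 86 and 79 in thinned cells, also chosen after seeing the data. The number of genes measured after thinning is not given, so these counts have no share. Of these single log2 folds that changed sign, Acta2 was -1.84 with a Y-linked gene. Abcc9 was 1.46 with mural RNA cells left out, 1.25 after thinning and 0.81 with those other cells left out. Kcnj8 was 0.78 after thinning and 0.24 with those other cells left out, and Higd1b 0.072 after thinning. Hba-a2 was 0.64 without marked doublets and 1.47 with Xist, and Hba-a1 0.86 without marked doublets. Arterial cells had 0 Hba-a2 UMIs, and with Xist the others had 4. The positive Hba-a2 values are thus limits from the 3 counts set for a sum of 0, and show no higher level in arterial cells. In arterial cells 1 UMI is 0.804 CPM and in the others 0.221 CPM, which limits genes of few UMIs.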

Other observations

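In the tumour library 6 cells passed the gates of blood endothelial cells, with 37347 UMIs in all, and 0 of 6 reached the arterial threshold (exact upper limit 45.9%). Their highest 4-gene sum was 3.25 UMIs per 10000. Stmn2 had 3 UMIs in 1 cell, Sema3g 1 UMI, and Gja4 and Gja5 none, while Mecom had 12 UMIs, Sox17 6, Nr2f2 11 and Aplnr 2. That sort also required PDPN, so the libraries were not compared.

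In the normal library 52 cells reached the 4-gene threshold but failed a gate, 41 of them the endothelial one. Gja4 had 551 CPM in these cells and was found in 84.6%, while Sema3g had 120 CPM, Hey1 66.0 CPM and Sox17 68.8 CPM.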
